A study of Mus musculus with 8 samples.

Results

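The collagen genes of the mouse are described here in RNA of the duodenum, the first segment of the small intestine. They were taken as every protein-coding gene of the deposited table whose symbol is Col, a number, the letter a and a number, which gives 44 of 54532 genes on 15 chromosomes. The tested mice carried a global heterozygous knockout of Zeb2 (Zeb2+/-), made to study the growth retardation of Mowat-Wilson syndrome, which ZEB2 loss causes in people, and the other mice had an intact Zeb2 (WT). Each genotype had 4 libraries of polyadenylated RNA. The knockout is present in every cell type that uses Zeb2, so a difference in whole duodenum cannot be assigned to 1 cell type. The labels give neither the age nor the sex of the mice, nor which mouse each library came from. The p-values therefore only set the difference between the groups against the scatter of these samples, and that scatter may be technical.

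Collagens are the main structural proteins of the matrix between cells. Each is a triple helix of alpha chains, built from repeats with glycine at every turn, and each chain has its own gene. Fibrillar collagens form the fibres of the gut wall, collagen IV forms the sheet of the basement membrane under epithelium and around vessels and muscle, and collagen VI forms beaded filaments next to it. Fibril-associated collagens sit on the fibres, multiplexins lie in the basement membrane zone, and transmembrane collagens span the cell surface. In the intestine most collagen is made by mesenchymal cells, with shares from endothelium and muscle. The product of Zeb2 is a transcription factor with zinc fingers, mostly a repressor, that interacts with the SMADs of the TGF-beta pathway, and TGF-beta is a known inducer of collagen genes.

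Zeb2 and the libraries were checked first. Zeb2 had 0.488, 0.173, 0.197 and 0.344 FPKM (fragments per kilobase of gene on the library scale of the authors' file, so that levels of genes of different length can be set side by side) in Zeb2+/- libraries 1 to 4, against 0.991, 0.760, 1.19 and 0.83 FPKM in WT libraries 1 to 4, without overlap (exact two-sided permutation p = 0.0286, the smallest that 4 against 4 allows). Fitted by limma without a minimum, Zeb2 did not pass (log2 fold change -0.58, SE 0.12, adjusted p = 0.0772). The libraries held 13579347 to 17137417 reads rebuilt from the deposited values, of which the collagens took 0.0228% to 0.0887% in Zeb2+/- and 0.0879% to 0.140% in WT. The defining markers of the tissue were abundant in both genotypes, with the 8 enterocyte markers summing to 14429 to 45082 FPKM in Zeb2+/- and 22729 to 33230.1 FPKM in WT. What total the FPKM were scaled to was not given. The total they imply was 1.16, 0.832, 0.733 and 0.912 times the rebuilt reads in Zeb2+/- libraries 1 to 4 and 0.798 to 0.956 times in WT, so that levels in Zeb2+/- library 1 would be higher, and in library 3 lower, on the scale of rebuilt reads. Ratios of genes within a library do not depend on this scale, and 10 collagen genes were called lower on the TPM scale, where libraries share 1 total. Zeb2+/- library 1 stood apart from the other Zeb2+/- libraries. It had the lowest enterocyte sum and the highest sum of 8 smooth muscle markers (683 FPKM, against 279 to 471 FPKM in Zeb2+/- libraries 2 to 4 and 219 to 279 FPKM in WT). Each tested collagen gene whose call changes without library 1 is given with and without it.

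The Col4a1 and Col4a2 genes, which encode both chains of the common collagen IV trimer, lie on opposite strands. Their starts are 21 bases apart, and their 5′ ends overlap by 22 bases. Their transcript levels are compared as a pair further on. The promoter windows are shown so that the shared stretch can be read. They run from 250 bases before to 50 bases after the RefSeq start (GRCm38.p6), each 5′ to 3′ on its gene's strand, and capitals mark the 78 bases that lie in both windows. Col4a1 is chr8:11312777-11313076 on the minus strand, and Col4a2 is chr8:11312555-11312854 on the plus strand.
Col4a1: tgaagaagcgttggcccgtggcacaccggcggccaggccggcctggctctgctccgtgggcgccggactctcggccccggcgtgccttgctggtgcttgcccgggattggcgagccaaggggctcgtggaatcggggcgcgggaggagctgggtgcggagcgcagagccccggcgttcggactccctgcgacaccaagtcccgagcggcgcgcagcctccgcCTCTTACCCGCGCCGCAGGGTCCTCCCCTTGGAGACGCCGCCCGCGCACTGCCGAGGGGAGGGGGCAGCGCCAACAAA
Col4a2: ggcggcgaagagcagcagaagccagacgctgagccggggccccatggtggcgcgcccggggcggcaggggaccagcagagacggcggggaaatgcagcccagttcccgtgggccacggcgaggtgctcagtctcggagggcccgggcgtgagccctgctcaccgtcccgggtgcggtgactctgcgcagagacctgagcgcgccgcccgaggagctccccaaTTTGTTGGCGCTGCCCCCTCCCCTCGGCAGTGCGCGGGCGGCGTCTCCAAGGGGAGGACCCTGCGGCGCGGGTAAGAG

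Zeb2 is known to bind the E2-box, CACCTG, which reads CAGGTG on the other strand. Of the 44 collagen genes 35 had a RefSeq window, and 5 of these held CACCTG or CAGGTG (Col16a1, Col4a4, Col6a5, Col8a1 and Col9a2), as did 20.2% of all 32851 windows of that length. The shorter core CACCT or AGGTG, which the E2-box contains, was in 19 collagen windows and 51.9% of all windows. The motif CCAAT or ATTGG, bound by NF-Y, was in 13 collagen windows, those of Col4a1, Col4a2 and Col1a2 among them, and in 37.4% of all windows. The TATA motif TATAAA or TTTATA was in 5 collagen windows and 13.6% of all windows. Of the 10 collagen genes of at least 1 FPKM described below as lower in Zeb2+/-, 9 had a window. Of these 9, 0 held the E2-box and 4 held the shorter core. Of the 3 called lower below 1 FPKM, Col6a5 held the E2-box. A match of letters is a description and does not show binding. Windows of 2 genes with the E2-box in capitals are shown because Col6a5 was the E2-box gene that passed a test and Col16a1 was the E2-box gene with a mean of at least 1 FPKM. They are chr9:105960594-105960893 on the minus strand, where the E2-box begins 10 bases before the start, and chr4:130047590-130047889 on the plus strand, where it begins 181 bases before it.
Col6a5: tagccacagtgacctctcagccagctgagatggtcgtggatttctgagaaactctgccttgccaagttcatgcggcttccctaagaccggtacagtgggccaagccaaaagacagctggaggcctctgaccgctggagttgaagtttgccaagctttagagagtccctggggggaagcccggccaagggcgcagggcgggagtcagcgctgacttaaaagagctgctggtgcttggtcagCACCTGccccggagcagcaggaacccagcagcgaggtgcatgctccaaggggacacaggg
Col16a1: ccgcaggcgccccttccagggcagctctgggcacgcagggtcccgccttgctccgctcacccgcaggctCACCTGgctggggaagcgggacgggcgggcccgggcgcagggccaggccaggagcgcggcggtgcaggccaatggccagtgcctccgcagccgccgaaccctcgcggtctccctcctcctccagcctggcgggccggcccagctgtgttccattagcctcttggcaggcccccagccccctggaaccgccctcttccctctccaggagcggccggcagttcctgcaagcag

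Collagen transcripts were lower in the Zeb2+/- duodenum in most of the genes that could be tested, and no collagen gene was called higher. Of the 44 genes, 16 had a mean of at least 1 FPKM over the 8 libraries and entered limma's fit, which covers all 12190 genes above that minimum on the log2(FPKM + 1) scale and calls a Benjamini-Hochberg adjusted p below 0.05. In that fit 10 of the 16 fell and 0 rose, where 2.77% of all tested genes (2.38% of the protein-coding ones) were lower and 0.468% were higher. The median log2 fold change was -1.32 for the 16 collagen genes and 0.0024 for all tested genes. All 16 had a log2 fold change below 0, as had 49.7% of all tested genes. In FPKM every Zeb2+/- library lay below every WT library in 12 of them and above it in 0, against 6.87% and 7.65% of all tested genes. Col4a1 and Col4a2 are among these 12, and their genotypes overlapped on the scale of rebuilt reads. Zeb2+/- means were 12.4% to 59.6% of the WT means. In bulk RNA, fewer cells of a type and less RNA per cell cannot be told apart.

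**Figure D1:**
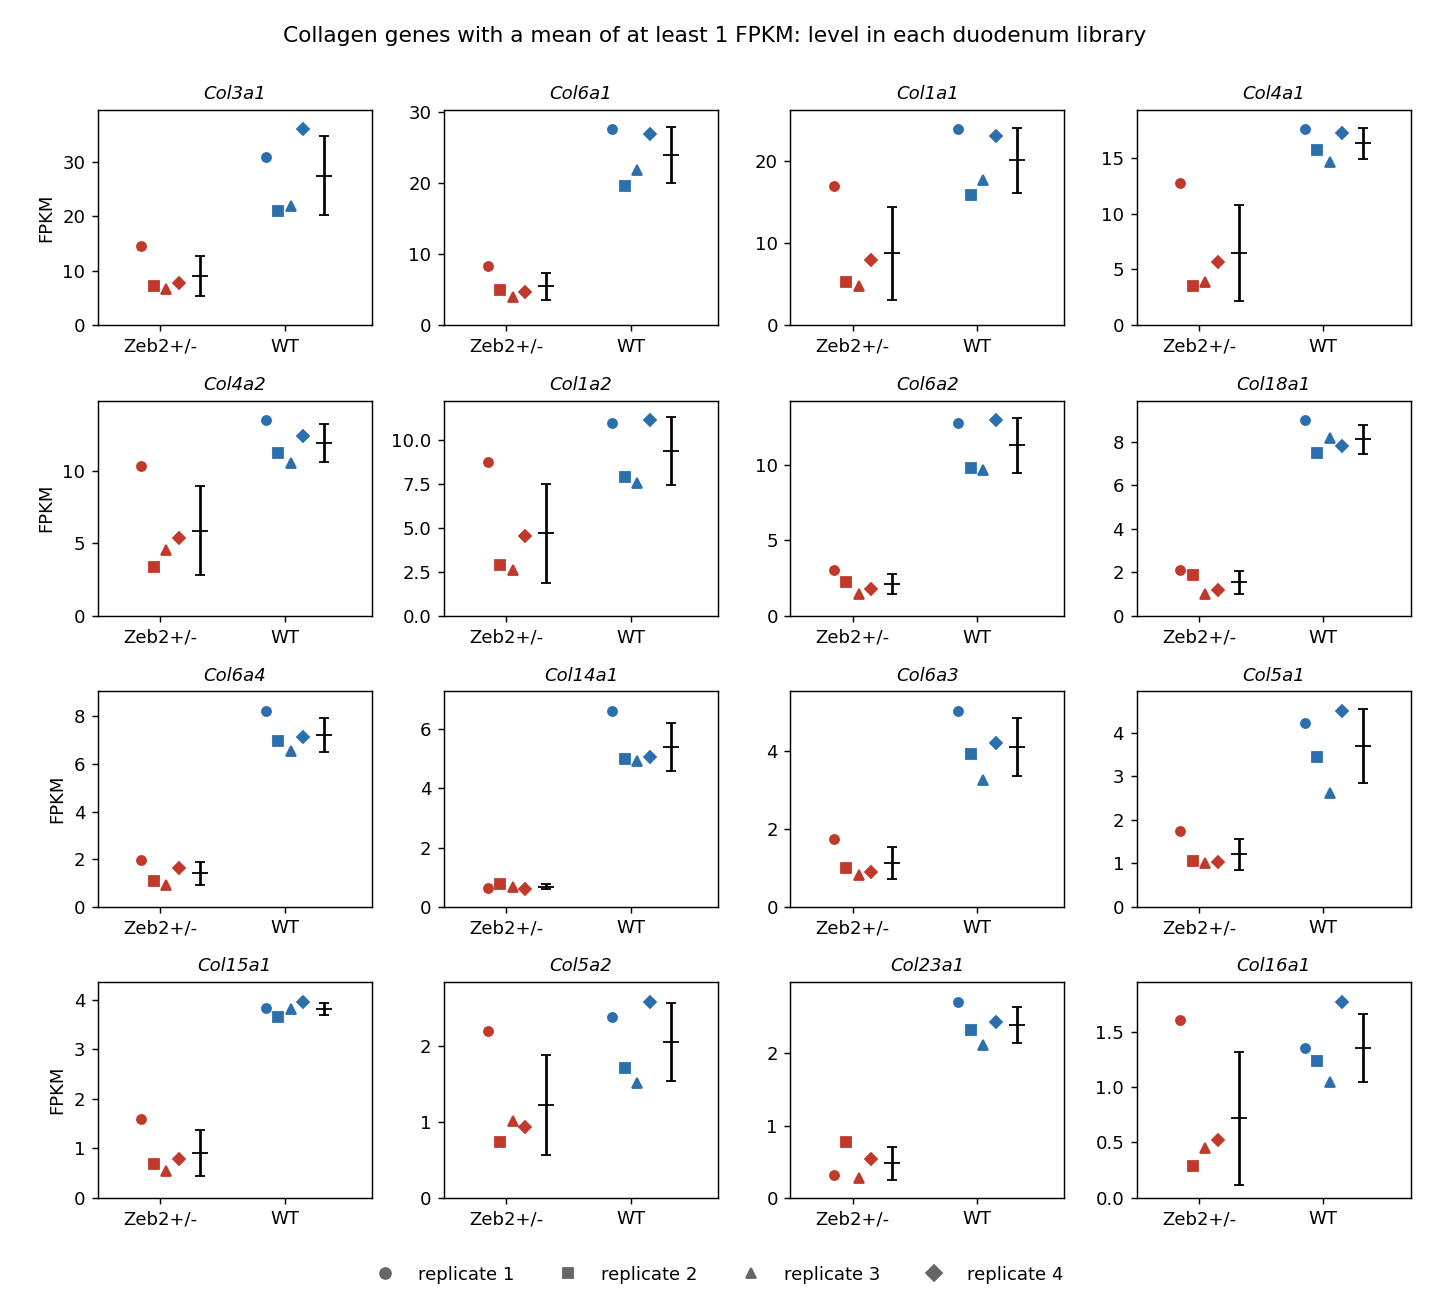
FPKM of the 16 tested collagen genes in each library of Zeb2+/- (red, left) and WT (blue, right), with 1 symbol per replicate and the mean ± SD in black (n = 4 each). In 12 genes the Zeb2+/- points lie below all WT points, while Col1a1, Col1a2, Col5a2 and Col16a1 overlap through Zeb2+/- library 1.

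Summed over all 44 genes, collagen transcripts stood at 97.3, 41.8, 39.7 and 50.3 FPKM in Zeb2+/- libraries 1 to 4, against 189, 144, 144 and 188 FPKM in WT libraries 1 to 4. In FPKM the highest Zeb2+/- sum, that of library 1, lay below the lowest WT sum. As a share of rebuilt reads library 1 lay above WT library 3, at 0.0887% against 0.0879%. Markers of other cell types were counted beside the collagens. Of 9 tested fibroblast markers, which include decorin and lumican of the proteoglycan list below, 2 fell, Pdgfrb and Pdgfra. All 9 had a negative log2 fold change, with a median of -0.64 and 5 at an unadjusted limma p below 0.05. The list of 10 summed to 115 to 156 FPKM in Zeb2+/- and 136 to 191 FPKM in WT. Without Zeb2+/- library 1, 5 were lower, and the Pdgfra call was lost in 12 of 20 alternatives, among them leaving out any 1 other library (adjusted p up to 0.124). Of 7 tested endothelial markers 5 fell, Kdr, Tie1, Eng, Cdh5 and Tek, and the list of 8 summed to 5.24 to 13.2 FPKM in Zeb2+/- and 24.0 to 26.9 FPKM in WT. Of 7 tested smooth muscle markers 0 passed in either direction, with 5 at an unadjusted p below 0.05 and a median log2 fold change of 0.68. Of 9 mitochondrially encoded genes 0 passed, and all such genes took 7.28% to 8.76% of reads in Zeb2+/- and 4.88% to 5.48% in WT. Of 10 tested pancreatic acinar markers 9 fell, and they summed to 2.66 to 11.7 FPKM in Zeb2+/- and 168 to 2526 FPKM in WT. With voom on rebuilt reads 1 fibroblast, 5 endothelial and 0 acinar markers were lower and 4 mitochondrially encoded genes were higher. Without Zeb2+/- library 1, 6 endothelial and 8 acinar markers were lower and 1 mitochondrially encoded gene was higher. No marker on these lists was at 0 in all 8 libraries. The named markers are those that passed, and the part of these differences in the collagen result was not tested.

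The fibrillar collagens divided into genes that fell and genes that did not pass. Col3a1, the chain of the fine reticular fibres (ENSMUSG00000026043, GRCm38 chromosome 1, 45311538 to 45349706, plus strand), had the highest mean FPKM of the collagens. It had 14.5, 7.16, 6.65 and 7.70 FPKM in Zeb2+/- libraries 1 to 4, against 31.0, 21, 22.0 and 36.1 FPKM in WT libraries 1 to 4. Library 1 was the highest of the Zeb2+/- libraries, and the genotypes did not overlap (log2 fold change -1.54, SE 0.26, limma adjusted p = 0.0135). Col5a1, a chain of the collagen V that starts and limits fibres, had 1.75, 1.05, 1.02 and 1.04 FPKM in Zeb2+/- libraries 1 to 4, against 4.23, 3.44, 2.62 and 4.51 FPKM in WT libraries 1 to 4. All Zeb2+/- values were below the lowest WT value (log2 fold change -1.08, SE 0.17, limma adjusted p = 0.00950). With voom on rebuilt reads neither passed (adjusted p = 0.0613 for Col3a1 and 0.0575 for Col5a1), and Col3a1 also did not pass without WT library 1 (adjusted p = 0.0567). The other 8 collagen genes that fell in limma passed with voom too, where 1.53% of all tested genes were lower.

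Col1a1 and Col1a2, which encode the chains of collagen I, the main fibre of the gut wall, did not pass. Col1a1 had 17.0, 5.25, 4.80 and 7.97 FPKM in Zeb2+/- libraries 1 to 4, against 23.8, 15.8, 17.6 and 23.0 FPKM in WT libraries 1 to 4. Zeb2+/- libraries 2 to 4 lay below all WT values and library 1 lay among them (log2 fold change -1.25, SE 0.34, limma adjusted p = 0.0953). Col1a2 had 8.74, 2.90, 2.60 and 4.53 FPKM in Zeb2+/- libraries 1 to 4, against 11, 7.89, 7.57 and 11.1 FPKM in WT libraries 1 to 4, in the same arrangement (log2 fold change -0.97, SE 0.30, limma adjusted p = 0.135). Without Zeb2+/- library 1 both passed, with log2 fold changes of -1.60 and -1.27 and adjusted p of 0.00328 and 0.00880. Col5a2, the partner of Col5a1 in collagen V, stood at 1.22 ± 0.662 FPKM in Zeb2+/- and 2.04 ± 0.514 FPKM in WT (SD, n = 4 each). It did not pass with all libraries (log2 fold change -0.48, SE 0.21, limma adjusted p = 0.264) or without library 1 (adjusted p = 0.0581). Col3a1 and Col5a2 lie side by side on chromosome 1 in opposite directions.

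All 4 tested chains of collagen VI fell, to 18.7% (Col6a2), 19.4% (Col6a4), 22.9% (Col6a1) and 27.2% (Col6a3) of the WT mean. Col6a1 (ENSMUSG00000001119, GRCm38 chromosome 10, 76708792 to 76726168, minus strand) had 8.26, 4.95, 3.99 and 4.68 FPKM in Zeb2+/- libraries 1 to 4, against 27.6, 19.5, 21.8 and 26.9 FPKM in WT libraries 1 to 4. Col6a2, its neighbour on the same strand, had 3.0, 2.21, 1.48 and 1.75 FPKM in Zeb2+/- libraries 1 to 4, against 12.8, 9.75, 9.65 and 12.9 FPKM in WT libraries 1 to 4. In both genes the highest Zeb2+/- library held less than the lowest WT library (log2 fold change -1.97, SE 0.20, limma adjusted p = 0.00115 for Col6a1, and log2 fold change -1.99, SE 0.17, limma adjusted p = 0.000587 for Col6a2). Col6a3, the long chain that completes the classical trimer, stood at 1.11 ± 0.414 FPKM in Zeb2+/- and 4.10 ± 0.736 FPKM in WT, and Col6a4, a chain that can take its place, at 1.40 ± 0.497 FPKM in Zeb2+/- and 7.21 ± 0.722 FPKM in WT (SD, n = 4 each, adjusted p = 0.00345 and 0.000609). These 4 calls held in each alternative in which the genes were fitted, 21 for Col6a1 and Col6a2 and 20 for Col6a3 and Col6a4.

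The 2 tested chains of collagen IV, the sheet of the basement membrane, did not pass in the fit of all libraries. Col4a1 (ENSMUSG00000031502, GRCm38 chromosome 8, 11198423 to 11312826, minus strand) had 12.7, 3.51, 3.90 and 5.70 FPKM in Zeb2+/- libraries 1 to 4, against 17.6, 15.7, 14.7 and 17.2 FPKM in WT libraries 1 to 4. In FPKM every Zeb2+/- library was below every WT library, with library 1 far nearer to WT than the others (log2 fold change -1.36, SE 0.31, limma adjusted p = 0.0553). Col4a2 had 10.3, 3.37, 4.52 and 5.36 FPKM in Zeb2+/- libraries 1 to 4, against 13.5, 11.2, 10.5 and 12.4 FPKM in WT libraries 1 to 4, again without overlap (log2 fold change -1.0, SE 0.26, limma adjusted p = 0.0835). On the scale of rebuilt reads the genotypes overlapped in both genes. Zeb2+/- library 1 had 1767 Col4a1 and 1269 Col4a2 reads of 16096115, and WT library 3 had 1428 and 908 of 16341368. Without Zeb2+/- library 1 both passed, with log2 fold changes of -1.71 and -1.27 and adjusted p of 0.000579 and 0.00242. Their annotated exons share 22 bases, and whether reads were counted by strand is not stated in the labels. The other genes that share exonic bases with a tested collagen gene had a mean of at most 0.0864 FPKM.

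Both multiplexins fell. Col18a1, whose cleaved end is the vessel inhibitor endostatin (ENSMUSG00000001435, GRCm38 chromosome 10, 77052178 to 77166548, minus strand), had 2.10, 1.87, 1.03 and 1.19 FPKM in Zeb2+/- libraries 1 to 4, against 8.99, 7.48, 8.15 and 7.80 FPKM in WT libraries 1 to 4. Col15a1, which links fibres to basement membranes around vessels and muscle, had 1.58, 0.683, 0.541 and 0.786 FPKM in Zeb2+/- libraries 1 to 4, against 3.84, 3.65, 3.82 and 3.96 FPKM in WT libraries 1 to 4. Neither gene overlapped between genotypes, and the WT values of Col15a1 were close together (log2 fold change -1.86, SE 0.15, limma adjusted p = 0.000533 for Col18a1, and log2 fold change -1.37, SE 0.16, limma adjusted p = 0.00247 for Col15a1). Col18a1 spans a stretch that Slc19a1 also spans on the other strand, without shared exonic bases, and Slc19a1 had a mean of 14.3 FPKM.

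Among the fibril-associated collagens Col14a1 had the lowest level relative to WT of all 16 tested genes. It had 0.629, 0.783, 0.680 and 0.589 FPKM in Zeb2+/- libraries 1 to 4, against 6.62, 5.01, 4.93 and 5.08 FPKM in WT libraries 1 to 4, with 53 to 82 reads in Zeb2+/- and 451 to 700 in WT. The 4 Zeb2+/- libraries, library 1 included, were nearly alike at 12.4% of the WT mean (log2 fold change -1.93, SE 0.12, limma adjusted p = 0.000226). Col16a1, which joins fibres to other matrix, did not pass and stood at 0.716 ± 0.603 FPKM in Zeb2+/- and 1.35 ± 0.307 FPKM in WT (SD, n = 4 each, adjusted p = 0.282). Its value in Zeb2+/- library 1, 1.61 FPKM, exceeded 3 of the 4 WT values, and without that library it passed (log2 fold change -0.72, adjusted p = 0.0450). Col12a1, another gene of this class, lay below the minimum at 0.605 ± 0.276 FPKM in Zeb2+/- and 0.981 ± 0.182 FPKM in WT with overlapping genotypes.

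Of the transmembrane collagens Col23a1 was tested and fell. It had 0.319, 0.772, 0.277 and 0.530 FPKM in Zeb2+/- libraries 1 to 4, against 2.72, 2.33, 2.11 and 2.43 FPKM in WT libraries 1 to 4, and Zeb2+/- library 2 was the highest of its genotype (log2 fold change -1.21, SE 0.15, limma adjusted p = 0.00255).

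**Figure D2:**
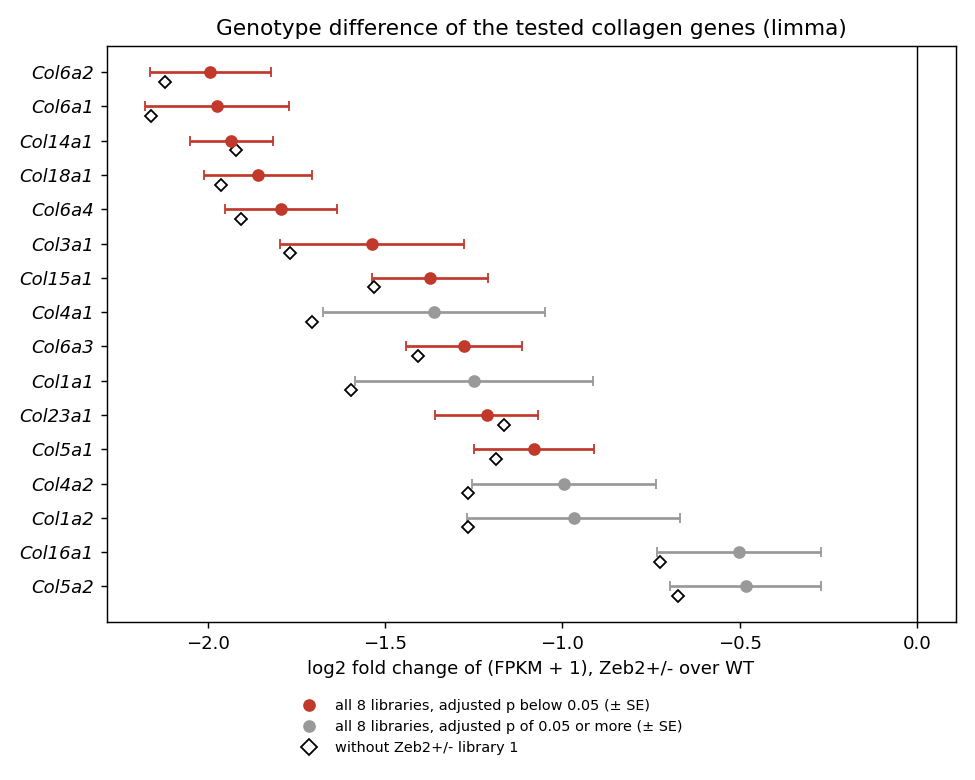
Log2 fold change of (FPKM + 1), Zeb2+/- over WT, for the 16 tested collagen genes, with limma's SE (red: adjusted p below 0.05, grey: not) and, as open diamonds, the value without Zeb2+/- library 1. All points lie below 0, and those of the fit of all 8 libraries run from -0.48 (Col5a2) to -1.99 (Col6a2).

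Library 1 was the highest of the 4 Zeb2+/- libraries in 14 of the 16 tested genes, all except Col14a1 and Col23a1, where this held for 31.3% of all tested genes and 42.3% of all genes called lower. Over the 16 genes library 1 held 11.6% (Col14a1) to 119% (Col16a1) of the WT mean. The mean of libraries 2 to 4 was 12.6% (Col14a1) to 43.7% (Col5a2) of the WT mean over all 16. Without library 1, 15 of the 16 were lower, all but Col5a2, where 3.18% of all genes were. The median log2 fold change was then -1.56. Leaving out the highest Zeb2+/- library of a gene lowers its group mean, so this count is no separate support. Leaving out any other single library gave 9 or 10 lower collagen genes. Without libraries 1 and 3, 14 were lower, where 2.19% of all genes were. Smooth muscle markers were also highest in this library, and their part in its collagen levels was not tested.

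**Figure D3:**
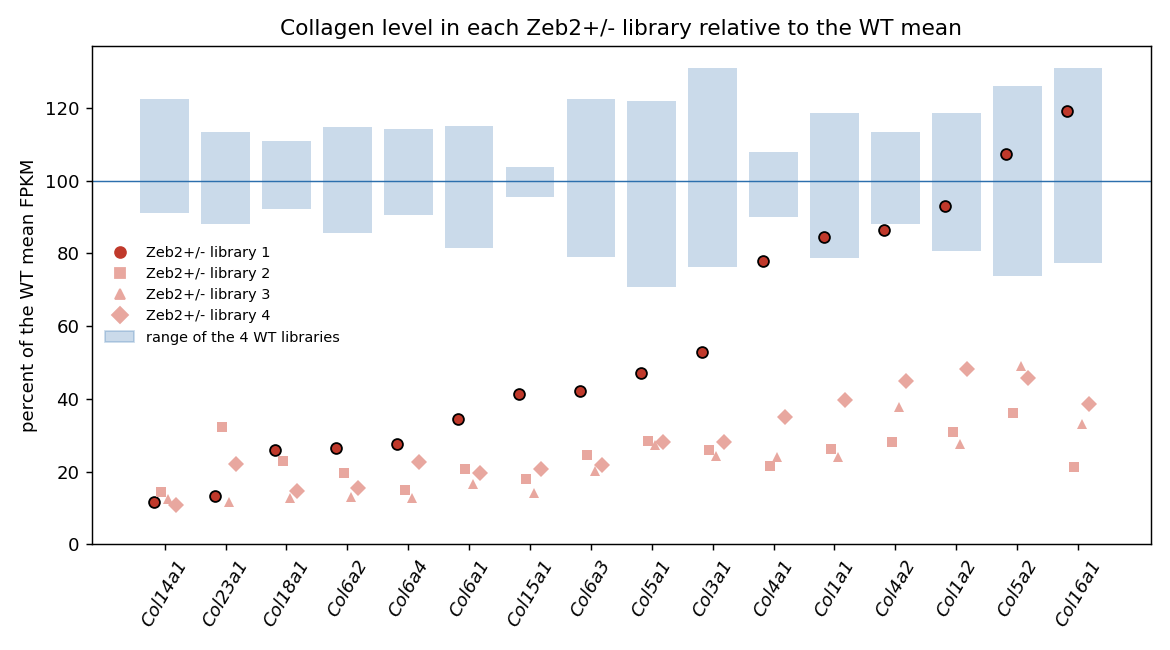
FPKM of each Zeb2+/- library as a percent of the WT mean for the 16 tested collagen genes, ordered by library 1 (dark red circles), with the range of the 4 WT libraries as blue bands. Library 1 reaches the WT range in Col1a1, Col1a2, Col5a2 and Col16a1, and stays with the other Zeb2+/- libraries in Col14a1 and Col23a1.

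The make-up of the collagen transcripts also differed, a comparison that does not depend on how a library was scaled. Collagen VI took 15.4% to 22.2% of the summed collagen FPKM in Zeb2+/- and 27.7% to 29.1% in WT, without overlap. Collagen XIV took 0.646% to 1.87% in Zeb2+/- and 2.70% to 3.50% in WT, also without overlap. Collagen I took 18.6% to 26.4% in Zeb2+/- and 16.4% to 18.4% in WT, and collagen V took 4.54% to 5.68% in Zeb2+/- and 3.16% to 4.21% in WT, both higher in each Zeb2+/- library than in any WT library, library 1 included. The shares of collagen III (14.9% to 17.1% in Zeb2+/-, 14.6% to 19.2% in WT) and collagen IV (17.8% to 24.1% in Zeb2+/-, 16.8% to 19.8% in WT) overlapped. Collagen XV took 1.36% to 1.63% in Zeb2+/- and 2.03% to 2.64% in WT, without overlap. Collagen XVIII took 2.16% to 4.46% in Zeb2+/- and 4.15% to 5.64% in WT, with overlap. A higher share is not a higher level, and the tested chains of collagens I and V had lower mean FPKM in Zeb2+/-. All these shares were computed after the genes' values were known and were not tested.

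**Figure D4:**
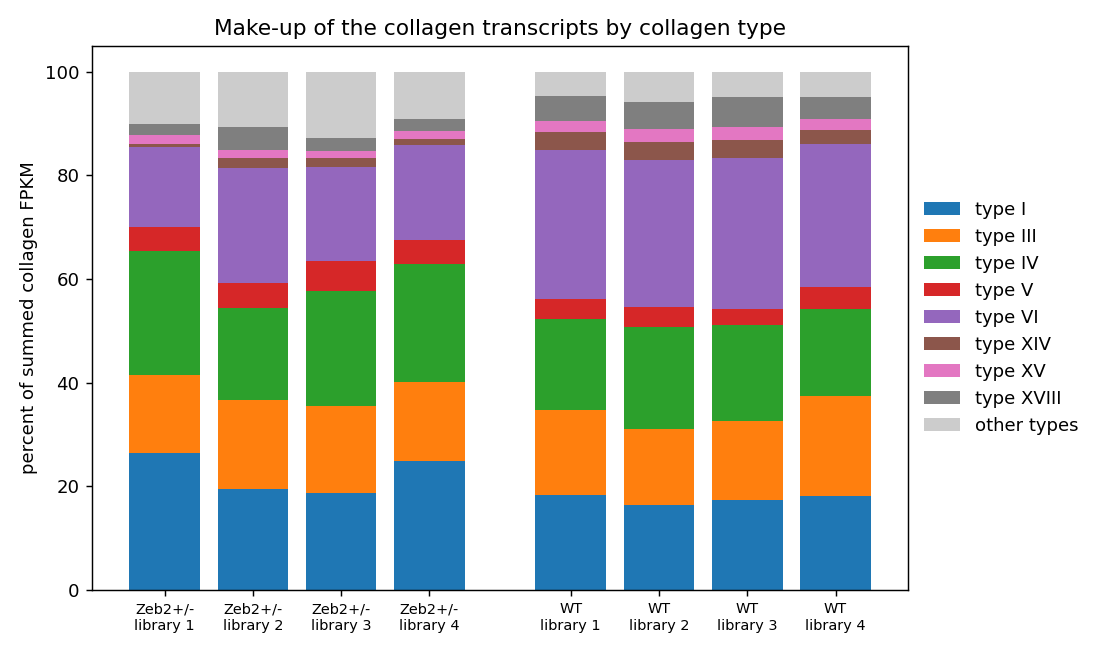
Share of each collagen type in the summed FPKM of the 44 collagen genes, as stacked bars that add to 100 percent, for the 4 Zeb2+/- libraries (left) and the 4 WT libraries (right). Collagen VI (purple) is the largest type in each WT library, at 27.7% to 29.1%, and is smaller in each Zeb2+/- library, at 15.4% to 22.2%.

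Chains that assemble with each other were compared as ratios of FPKM within a library, for 6 pairs, with an exact two-sided permutation test of the log2 ratio and adjustment over the 6. The ratio Col5a1/Col5a2 was 0.795, 1.43, 1.01 and 1.11 in Zeb2+/- libraries 1 to 4, against 1.78, 2.01, 1.73 and 1.75 in WT libraries 1 to 4. The genotypes did not overlap (difference of the mean log2 ratio -0.77, exact two-sided permutation p = 0.0286, adjusted p = 0.0571). The ratio Col4a1/Col4a2 was 1.23, 1.04, 0.864 and 1.06 in Zeb2+/- libraries 1 to 4, against 1.30, 1.40, 1.39 and 1.39 in WT libraries 1 to 4, also without overlap (difference of the mean log2 ratio -0.39, exact two-sided permutation p = 0.0286, adjusted p = 0.0571). The ratio Col1a1/Col1a2 was 1.76 to 1.94 in Zeb2+/- and 2.0 to 2.32 in WT (difference of the mean log2 ratio -0.22, exact two-sided permutation p = 0.0286, adjusted p = 0.0571). In these 3 pairs the exact p was the smallest that 4 against 4 allows, and none passed after adjustment. Without Zeb2+/- library 1 the differences were -0.63, -0.48 and -0.25, each with an exact p of 0.0571, the smallest that 3 against 4 allows.

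In collagen VI the ratios lay in the other direction and the genotypes overlapped. Col6a1/Col6a2 was 2.24 to 2.75 in Zeb2+/- and 2.0 to 2.26 in WT (difference of the mean log2 ratio 0.28, exact two-sided permutation p = 0.0571, adjusted p = 0.0686), and Col6a3/Col6a1 was 0.192 to 0.209 in Zeb2+/- and 0.149 to 0.201 in WT (difference of the mean log2 ratio 0.25, exact two-sided permutation p = 0.0571, adjusted p = 0.0686). The ratio of the fibre collagens Col3a1/Col1a1 was 0.856 to 1.39 in Zeb2+/- and 1.25 to 1.56 in WT (difference of the mean log2 ratio -0.28, exact two-sided permutation p = 0.286, adjusted p = 0.286). Its Zeb2+/- values split, with libraries 1 and 4 below all WT values and libraries 2 and 3 within their range.

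**Figure D5:**
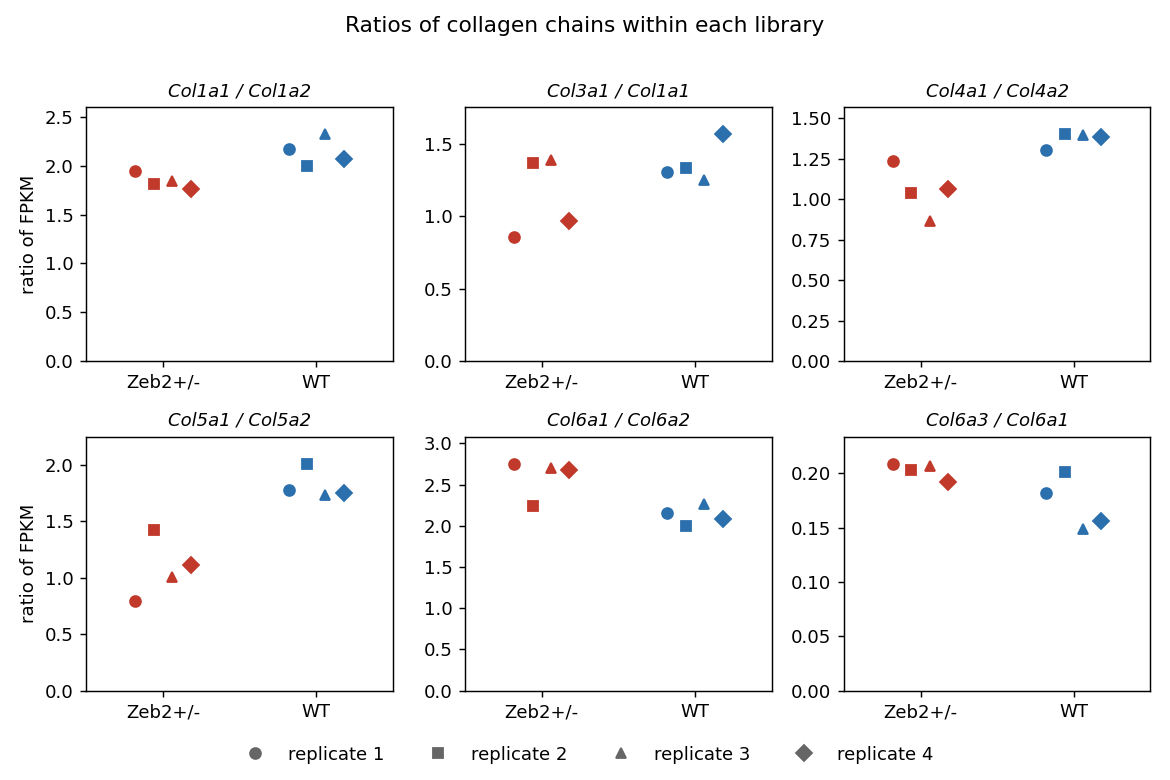
Ratios of FPKM of 2 collagen chains within each library for Zeb2+/- (red, left) and WT (blue, right), 1 symbol per replicate, axes from 0. The genotypes separate for Col1a1/Col1a2, Col4a1/Col4a2 and Col5a1/Col5a2 and overlap in the other 3 pairs.

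The other 28 collagen genes had a mean below 1 FPKM and were fitted only without the minimum, among 27850 genes above 0 in any library. Of these 28, 3 passed, all lower, where 0.345% of all genes below 1 FPKM were lower and 0.0128% higher. Col6a5, a further collagen VI chain, had 0.0343, 0.0658, 0.00889 and 0.116 FPKM in Zeb2+/- libraries 1 to 4, against 1.01, 0.746, 0.701 and 0.907 FPKM in WT libraries 1 to 4. Its Zeb2+/- values rest on 1 to 14 reads per library, against 86 to 144 in WT (log2 fold change -0.80, SE 0.10, limma adjusted p = 0.00638). Col4a5, a collagen IV chain of the X chromosome, had 0.240 ± 0.0930 FPKM in Zeb2+/- and 1.17 ± 0.236 FPKM in WT (log2 fold change -0.81, SE 0.12, limma adjusted p = 0.0155). Col13a1, a transmembrane collagen, had 0.172 ± 0.0593 FPKM in Zeb2+/- and 0.942 ± 0.106 FPKM in WT (log2 fold change -0.73, SE 0.09, limma adjusted p = 0.00921; SD, n = 4 each). In all 3 every Zeb2+/- library was below every WT library. The fold changes of genes this low are held near 0 by the added 1 FPKM.

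Col8a2, a short-chain collagen of endothelial basement membranes, had a higher mean in Zeb2+/-. It had 2.19, 0.532, 1.36 and 0.782 FPKM in Zeb2+/- libraries 1 to 4, against 0.487, 0.526, 0.444 and 0.634 FPKM in WT libraries 1 to 4. Libraries 1 and 3 made most of that difference, library 2 lay within the WT range, and the gene did not pass (log2 fold change 0.49, SE 0.22, limma adjusted p = 0.436). Col20a1, a fibril-associated chain, stood at 0.556 ± 0.142 FPKM in Zeb2+/- and 0.516 ± 0.154 FPKM in WT (adjusted p = 0.898). The remaining 22 genes had means of at most 0.528 FPKM in Zeb2+/- and 0.539 FPKM in WT, and none passed. Among them, and chosen after their values were seen, Col4a3, Col4a6 and Col24a1 were lower in every Zeb2+/- library than in any WT library, and Col11a1 was higher. Over all 28 low genes the genotypes did not overlap in 6 that were lower and 1 that was higher in Zeb2+/-, against 3.22% and 1.26% of all genes below 1 FPKM. By family the 28 were 6 fibrillar chains, 4 of collagen IV, 2 of collagen VI, 7 fibril-associated, 3 transmembrane and 3 short-chain collagens, the anchoring fibril chain Col7a1 and 2 others, Col26a1 and Col28a1.

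The minor chains of collagen IV are best known from special basement membranes such as that of the kidney glomerulus. Col4a6 had 0.0337, 0.0999, 0.220 and 0.0782 FPKM in Zeb2+/- libraries 1 to 4, against 0.366, 0.288, 0.375 and 0.435 FPKM in WT libraries 1 to 4. Col4a3 had 0.0324, 0.0533, 0.0588 and 0.0548 FPKM in Zeb2+/- libraries 1 to 4, against 0.353, 0.187, 0.108 and 0.237 FPKM in WT libraries 1 to 4. Neither overlapped between genotypes and neither passed (adjusted p = 0.190 and 0.295). Col4a4, which is paired head to head with Col4a3, ranged over 0.00735 to 0.117 FPKM in Zeb2+/- and 0.0312 to 0.108 FPKM in WT.

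Among the low fibrillar chains Col24a1 had 0.0635, 0.0348, 0.0220 and 0.0921 FPKM in Zeb2+/- libraries 1 to 4, against 0.218, 0.187, 0.151 and 0.219 FPKM in WT libraries 1 to 4, without overlap (adjusted p = 0.252). Col11a1, a chain of cartilage fibres, was the reverse, with 0.253, 0.0486, 0.0526 and 0.0551 FPKM in Zeb2+/- libraries 1 to 4, against 0.0156, 0.0146, 0.0301 and 0.0163 FPKM in WT libraries 1 to 4 (adjusted p = 0.532). Col5a3, the third chain of collagen V, ranged over 0.234 to 0.474 FPKM in Zeb2+/- and 0.401 to 0.836 FPKM in WT, and Col27a1 over 0.252 to 0.805 FPKM in Zeb2+/- and 0.265 to 0.459 FPKM in WT. The genotypes overlapped in both. Col7a1, which anchors the basement membrane of stratified epithelia, ranged over 0.0344 to 0.329 FPKM in Zeb2+/- and 0.0373 to 0.229 FPKM in WT. At the bottom of the range, 11 genes had a mean below 0.1 FPKM and at most 60 reads in any library, the cartilage chain Col2a1 and Col19a1 with 2 and 0 reads in Zeb2+/- and 0 and 2 in WT, all libraries summed.

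The genes that fold and modify collagen chains in the cell did not pass the test. Of 19 genes on that list 11 were tested and 0 passed in either direction, with 2 at an unadjusted p below 0.05 and a median log2 fold change of -0.10. Of the 11, 7 had a log2 fold change below 0 and 4 above it. The 2 were Crtap and Plod1, which was named after its values were seen. Plod1 stood at 1.93 ± 0.525 FPKM in Zeb2+/- and 3.08 ± 0.240 FPKM in WT, without overlap, as in 6.87% of all tested genes (SD, n = 4 each, limma adjusted p = 0.113). Serpinh1, the collagen chaperone HSP47, stood at 11.4 ± 5.96 FPKM in Zeb2+/- and 13.7 ± 1.11 FPKM in WT (adjusted p = 0.542). P4hb, the shared subunit of prolyl hydroxylase and a general folding enzyme, stood at 1566 ± 400.0 FPKM in Zeb2+/- and 1348 ± 206 FPKM in WT (adjusted p = 0.726). Mia3, which loads procollagen for export, stood at 23.2 ± 6.71 FPKM in Zeb2+/- and 20.9 ± 1.7 FPKM in WT, and Ppib, a proline isomerase, at 14.5 ± 4.12 FPKM in Zeb2+/- and 17.6 ± 1.02 FPKM in WT (SD, n = 4 each, adjusted p = 0.786 and 0.441). Crtap, a partner of another prolyl hydroxylase named after its values were seen, passed without Zeb2+/- library 1 (adjusted p = 0.0265). A p above the threshold does not show equal levels.

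Outside the cell, 1 of 4 tested genes for procollagen cleavage and crosslinking fell (13 listed, median log2 fold change -0.29). It was Loxl2, a lysyl oxidase of collagen IV, which had 1.38, 0.835, 0.651 and 0.894 FPKM in Zeb2+/- libraries 1 to 4, against 2.91, 1.86, 2.06 and 2.60 FPKM in WT libraries 1 to 4, without overlap (log2 fold change -0.79, SE 0.16, limma adjusted p = 0.0310). That call was lost when any WT library, or any of Zeb2+/- libraries 2 to 4, was left out (adjusted p = 0.0541 to 0.122). Bmp1, the procollagen C-proteinase, stood at 6.42 ± 2.20 FPKM in Zeb2+/- and 7.20 ± 1.04 FPKM in WT, its enhancer Pcolce at 1.36 ± 0.491 FPKM in Zeb2+/- and 2.11 ± 0.547 FPKM in WT and Loxl1, another lysyl oxidase, at 1.46 ± 0.884 FPKM in Zeb2+/- and 1.59 ± 0.181 FPKM in WT (SD, n = 4 each, adjusted p = 0.690, 0.292 and 0.796). Of the 9 listed genes below 1 FPKM none passed in the fit without a minimum. In 6 of them (Adamts2, Adamts3, Adamts14, Lox, Loxl3 and Tll1, named after their values were seen) every Zeb2+/- library was below every WT library in FPKM. That was so in 3.22% of all genes below 1 FPKM. The smallest adjusted p was that of Adamts2, a procollagen N-proteinase (0.0547).

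Of 5 tested collagen receptors 0 passed in either direction and 0 had an unadjusted p below 0.05 (10 listed, median log2 fold change -0.18). Itgb1, the beta chain of all collagen-binding integrins, stood at 76.7 ± 10.1 FPKM in Zeb2+/- and 79.1 ± 6.44 FPKM in WT, the discoidin receptors Ddr1 at 22.6 ± 6.47 FPKM in Zeb2+/- and 24.3 ± 5.08 FPKM in WT and Ddr2 at 1.75 ± 0.719 FPKM in Zeb2+/- and 2.05 ± 0.0926 FPKM in WT, and Itga2 at 1.73 ± 0.421 FPKM in Zeb2+/- and 2.29 ± 0.152 FPKM in WT (SD, n = 4 each, adjusted p = 0.888, 0.820, 0.628 and 0.290). Of the 5 listed receptors below 1 FPKM none passed in the fit without a minimum. Of these Itga11, an integrin alpha chain of fibroblasts, at 0.10 ± 0.0627 FPKM in Zeb2+/- and 0.750 ± 0.303 FPKM in WT, and Lair1, an inhibitory receptor of immune cells, at 0.292 ± 0.181 FPKM in Zeb2+/- and 1.01 ± 0.0967 FPKM in WT, were chosen after their values were seen, and both were lower in every Zeb2+/- library than in any WT library (adjusted p = 0.0602 and 0.0522). That was so in 3.22% of all genes below 1 FPKM.

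Of 6 tested small proteoglycans that bind collagen 1 fell (7 listed, median log2 fold change -0.26). It was Bgn, biglycan, which had 5.09, 1.89, 1.11 and 5.15 FPKM in Zeb2+/- libraries 1 to 4, against 15.1, 12.3, 13.1 and 15.4 FPKM in WT libraries 1 to 4, without overlap (log2 fold change -1.94, SE 0.33, limma adjusted p = 0.0151). Its call was lost without WT library 1 (adjusted p = 0.0596) or WT library 4 (adjusted p = 0.0566). Decorin, Dcn, stood at 6.62 ± 2.53 FPKM in Zeb2+/- and 12.9 ± 3.61 FPKM in WT and passed without Zeb2+/- library 1 (adjusted p = 0.109 with it and 0.0201 without it). Ogn at 5.13 ± 1.52 FPKM in Zeb2+/- and 6.11 ± 1.86 FPKM in WT, Prelp at 4.38 ± 1.16 FPKM in Zeb2+/- and 5.61 ± 0.883 FPKM in WT and lumican, Lum, at 4.0 ± 1.71 FPKM in Zeb2+/- and 4.32 ± 1.11 FPKM in WT did not pass (SD, n = 4 each, adjusted p = 0.665, 0.346 and 0.837).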

How the data were processed

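The deposited values are FPKM per gene, which the authors made with HISAT2, version 2.0.5, and featureCounts, version 1.5.0-p3, per the submitters' processing notes, which name GRCm38 (mm10) as the genome. The labels' protocols describe directional libraries of polyadenylated RNA. Strand setting, annotation release, filters and library scale were not given in the sources used here. All 44 collagen IDs were found in GENCODE M21 of that build with the same start and end. Reads were rebuilt from FPKM and gene length, and 100% of values above 0 came out whole (tolerance 0.01 read). The members and gene lists were chosen with earlier results of these data known.

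Differences were tested with limma 3.58.1 (R 4.3.3; eBayes with trend and robust) on log2(FPKM + 1), genotype as the only term, for genes with a mean of at least 1 FPKM, with Benjamini-Hochberg adjustment over all of them, two-sided. Fold changes on this scale understate the change of low genes. The fit was tried on simulated counts with the same spread in all libraries. That does not test it where a library stands apart, as Zeb2+/- library 1 does here. Ratios and Zeb2 were compared with exact permutation tests (scipy 1.17.1). Named are Zeb2, collagen genes of at least 1 FPKM, the 6 highest and any called below it, and of each pathway list the called and the 4 most abundant other genes. Marker lists of epithelium, enterocytes, fibroblasts, smooth muscle, endothelium, glia, mesothelium, adipocytes, pancreatic acini and mitochondrial genes were counted beside them. The alternatives were other pseudocounts, minima and scalings, eBayes without trend, array weights, the replicate block, voom on rebuilt reads, removal of a gene length trend, and leaving out libraries. All pairs of libraries differed by more than sampling noise (chi-square per degree of freedom at least 15.0).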

Additional observations from a re-analysis of the deposited data

Results flagged for a closer look

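In 6 of 58 groups of 4 libraries, 1 library lay farther from its neighbour, relative to the range of the group, than Dixon's 95% limit allows. Chance does so in about 1 in 20 groups. Col3a1 had 14.5 FPKM and Col5a1 1.75 FPKM in Zeb2+/- library 1, against next values of 7.70 and 1.05 FPKM in that genotype. The Col6a1/Col6a2 ratio was low in Zeb2+/- library 2, at 2.24, against 2.67 to 2.75 in the other Zeb2+/- libraries. Col14a1 was high in WT library 1, at 6.62 FPKM, against 4.93 to 5.08 FPKM in the other WT libraries. The Col4a1/Col4a2 ratio was low in WT library 1, at 1.30, and the Col5a1/Col5a2 ratio was high in WT library 2, at 2.01.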

How the results depend on the processing

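No tested collagen gene changed sign in any of the 21 alternatives in which it was fitted. The count of 10 lower collagen genes was 3 with a minimum of 5 FPKM, where 7 genes were tested, and 16 with array weights. It ranged from 9 to 15 when 1 library was left out, and was 14 without Zeb2+/- libraries 1 and 3 and 8 with voom. Counts over all genes, 395, became 157 with the higher minimum, 1187 with array weights (694 lower and 493 higher, against 338 and 57), 202 with voom and 218 to 487 without 1 library, with the lowest counts without WT library 1 (218), WT library 4 (225) and WT library 2 (253). With array weights the folding, crosslinking, receptor and proteoglycan lists had 2, 2, 1 and 2 lower genes. TPM scaling gave 1 folding gene (Plod1) and 0 crosslinking genes, and the crosslinking count was also 0 without a minimum, with the higher minimum (under which Loxl2 was not tested), with voom and with the length trend removed. Leaving out 1 library gave 0 to 1, 0 to 1, 0 and 0 to 2 for the 4 lists. The cause of these changes was not tested.

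Whether the replicate number pairs the samples is not known. Same-numbered libraries of the genotypes had correlations of 0.236, -0.160, 0.327 and -0.189 of their deviations from the group means. Zeb2+/- libraries 1 and 3 correlated best with the WT library of their own number and libraries 2 and 4 did not, so these values cannot settle it. With the replicate number as a block 299 genes and 12 collagen genes were called. For Zeb2 the difference of the means was -0.642 FPKM, -0.642 FPKM in numbered pairs (replicate block, exact p = 0.125), -0.684 FPKM without Zeb2+/- libraries 1 and 3 (exact p = 0.133), and -0.705 to -0.559 FPKM without 1 library. With 3 against 4 libraries no exact p below 0.0571 can be reached, and with 4 pairs none below 0.125. A single read on a gene of 1 kilobase stands for 0.0538 to 0.0885 FPKM, so values of the low collagens rest on few reads.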

Other observations

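Collagen genes of low level in which Zeb2+/- library 1 lay far above the rest were seen after the values were known, and none passed a test. Col9a2, a cartilage-type fibril-associated chain, had 1.22, 0.372, 0.270 and 0.252 FPKM in Zeb2+/- libraries 1 to 4, against 0.279, 0.221, 0.173 and 0.157 FPKM in WT libraries 1 to 4. Col17a1, a chain of epithelial hemidesmosomes, had 0.476, 0.0768, 0.0290 and 0.203 FPKM in Zeb2+/- libraries 1 to 4, against 0.138, 0.119, 0.0399 and 0.0361 FPKM in WT libraries 1 to 4. In these genes library 1 held 70 and 51 reads, and its level exceeded that of every other library.

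Markers of further cell types were counted beside the collagens. Epithelial markers had 0 lower and 0 higher of 8 tested genes, with sums of 3013 to 6741 FPKM in Zeb2+/- and 4607 to 6524 FPKM in WT. Mesothelial markers had 0 lower and 0 higher of 3 tested genes, with sums of 7.02 to 10.2 FPKM in Zeb2+/- and 6.54 to 10.3 FPKM in WT. Adipocyte markers had 0 lower and 0 higher of 4 tested genes, with sums of 59.1 to 189.8 FPKM in Zeb2+/- and 54.6 to 119 FPKM in WT. Enteric glia markers had 0 lower and 0 higher of 1 tested gene, with sums of 28.8 to 87.4 FPKM in Zeb2+/- and 52.8 to 88.3 FPKM in WT. The other listed glia genes lay below the minimum, so these sums rest mainly on 1 gene and do not measure glia as a whole.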
